A study of Mus musculus with 82 samples.

Results

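The data described here are 12 RNA sequencing libraries from mouse ear skin: 6 from ears that received imiquimod and 6 from sham ears of the same experiment. They were chosen by library name, as the imiquimod and sham libraries of the experiment in which other mice began a CCR6 antagonist on different days. They are 12 of the 30 libraries of that experiment and 12 of the 82 libraries in the series. Every animal was a female C57BL/6J Rj mouse, and every library came from a punch of the right ear with a label time of day 8. The imiquimod group received cream with 5% imiquimod on the ears once a day, on day 0 through day 7, which made 8 applications. The sham group is labelled as vehicle, and the composition of the vehicle is not given in the sources used here. Neither group is labelled with the antagonist, and the age of the mice is not given in the sources used here. A punch holds epidermis, dermis, fat, nerve, muscle and ear cartilage together. Fewer cells of a type, less RNA per cell and more RNA from other tissues cannot be told apart in any result below. Nothing in the labels says that the 6 libraries of a group came from separate mice, and p-values then reflect only how much these particular libraries vary.

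Imiquimod is a small molecule that activates Toll-like receptor 7, an endosomal sensor of single-stranded RNA, and repeated application to mouse skin produces a thickened, scaling inflammation that is widely used as a model of psoriasis-like dermatitis. In that model dendritic cells release IL-23, gamma delta T cells and other lymphocytes release IL-17 and IL-22, and keratinocytes answer with proliferation, chemokines and antimicrobial proteins. The chemokine CCL20 attracts cells that carry its receptor CCR6, the target of the antagonist given to other mice of the experiment.

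Estimated counts per library totalled 28993034 to 35545765 in imiquimod ears and 24074053 to 30978096 in sham ears. Imiquimod libraries were deeper in an exact two-sided permutation test over 924 relabellings (p = 0.00649). The 10 most counted genes took 10.4% ± 0.350 of the counts in imiquimod ears and 7.42% ± 0.178 in sham ears (exact p = 0.00216, the smallest that 924 relabellings allow). Genes with at least 1 count numbered 25447 ± 294 in imiquimod ears and 25628 ± 405 in sham ears, a difference not shown by the same test (exact p = 0.385). The share of counts from mitochondrial genes was 3.83% ± 0.113 in imiquimod ears and 4.30% ± 0.189 in sham ears (exact p = 0.00433). Values below are CPM, the share of a library that a gene took after scaling for library composition, and ± after a log2 fold change is its standard error.

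Most of the measured transcriptome of the ear differed between imiquimod and sham ears. Of 18434 genes tested, 14393 (78.1%) passed an adjusted p of 0.05 in edgeR's quasi-likelihood test and are called changed here. Of all genes tested, 7032 (38.1%) were higher in imiquimod ears and 7361 (39.9%) were lower. A change of at least 1 on the log2 scale was called for 5421 genes (29.4%), 2269 of them higher (12.3%) and 3152 lower (17.1%). For 11378 genes (61.7%) the CPM values of the 6 imiquimod and the 6 sham libraries did not overlap. The median log2 fold change over all genes tested was -0.02. With so many genes called, a call by itself says little about a gene, and the sections below lead with sizes and with the direction of whole groups of genes. List counts of imiquimod against sham are to be read beside 38.1% higher and 39.9% lower over all genes, and groups that do not overlap beside 61.7%. List counts of the difference from day 8 have their own shares, given with them.

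**Figure D1:**
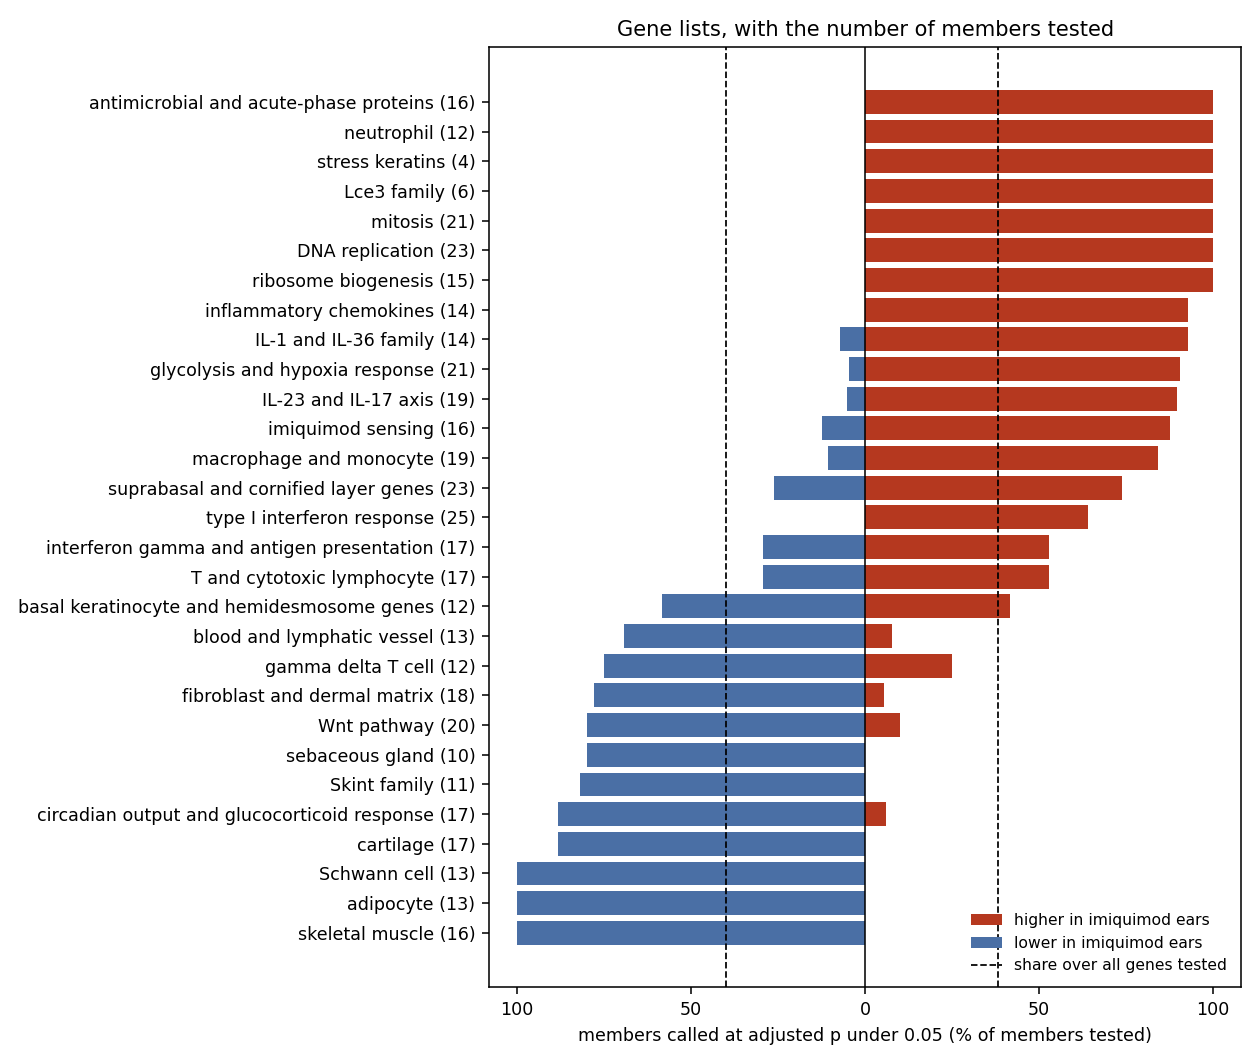
Share of the tested members of 29 gene lists that were called higher (red, to the right) or lower (blue, to the left) in imiquimod ears than in sham ears, as a percentage of the members tested, whose number stands in brackets. The dashed lines mark the shares over all genes tested, 38.1% higher and 39.9% lower. Lists of antimicrobial proteins, neutrophil genes, mitosis and DNA replication lie wholly to the right, and muscle, fat and Schwann cell lists wholly to the left.

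S100a8 and S100a9 encode the subunits of calprotectin, an antimicrobial and alarm protein of neutrophils and inflamed keratinocytes. S100a8 stood at 3194 to 4256 CPM (median 3690.2) in imiquimod ears, against 0.443 to 3.13 CPM (median 1.25) in sham ears. S100a9 stood at 3819 to 5166 CPM (median 4527) in imiquimod ears, against 0.201 to 1.45 CPM (median 0.895) in sham ears. For both genes every imiquimod library lay far above every sham library. The log2 fold changes were 11.37 ± 0.38 for S100a8 (adjusted p = 5.00e-20, edgeR) and 12.36 ± 0.39 for S100a9 (adjusted p = 1.59e-20, edgeR). Krt6a, a keratin of wounded and hyperproliferative epidermis, reached 6147 to 8397 CPM (median 7603) in imiquimod ears, against 42.8 to 89.2 CPM (median 51.1) in sham ears. Its groups were as clearly apart, at a log2 fold change of 7.04 ± 0.23 (adjusted p = 5.02e-20, edgeR), but its sequence is close to that of Krt6b and counts could have been divided between them. The neutrophil list summed to 159.8 to 249.8 CPM in imiquimod ears, against 19.8 to 26.8 CPM in sham ears, and its part in the S100a8 and S100a9 values was not tested.

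The cytokines of the IL-17 pathway were rare in these libraries and yet separated the groups. Il17a, the cytokine for which the pathway is named, measured 0.354 to 1.20 CPM in imiquimod ears and 0 to 0.0948 CPM in sham ears. Il17f, its close relative, measured 3.86 to 6.18 CPM in imiquimod ears and 0.0672 to 0.435 CPM in sham ears. Il22, which drives keratinocyte proliferation, measured 2.44 to 5.14 CPM in imiquimod ears and 0 to 0.123 CPM in sham ears. In none of these cytokine genes did the groups overlap, and the log2 fold changes were 4.78 ± 0.57 for Il17a, 4.62 ± 0.36 for Il17f and 5.88 ± 0.42 for Il22 (adjusted p = 3.68e-09, 7.88e-13 and 3.75e-14, edgeR). Only 4 counts of Il17a lay in the 6 sham libraries together, against 130 in the imiquimod libraries, so the size of its fold change is loosely fixed.

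Ccl20, the ligand of CCR6, measured 3.09 to 12.9 CPM (median 8.81) in imiquimod ears, against 0.348 to 0.768 CPM (median 0.594) in sham ears. The groups did not overlap, although imiquimod library 12, at 3.09 CPM, stood well below the other imiquimod libraries. The log2 fold change of Ccl20 was 3.89 ± 0.51 (adjusted p = 1.04e-07, edgeR). Ccr6 itself, carried by IL-17-producing lymphocytes, B cells and some dendritic cells, measured 1.24 to 1.90 CPM (median 1.53) in imiquimod ears, against 0.198 to 0.644 CPM (median 0.499) in sham ears. Its lowest imiquimod library lay above its highest sham library, with a log2 fold change of 1.72 ± 0.26 (adjusted p = 2.68e-07, edgeR).

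**Figure D2:**
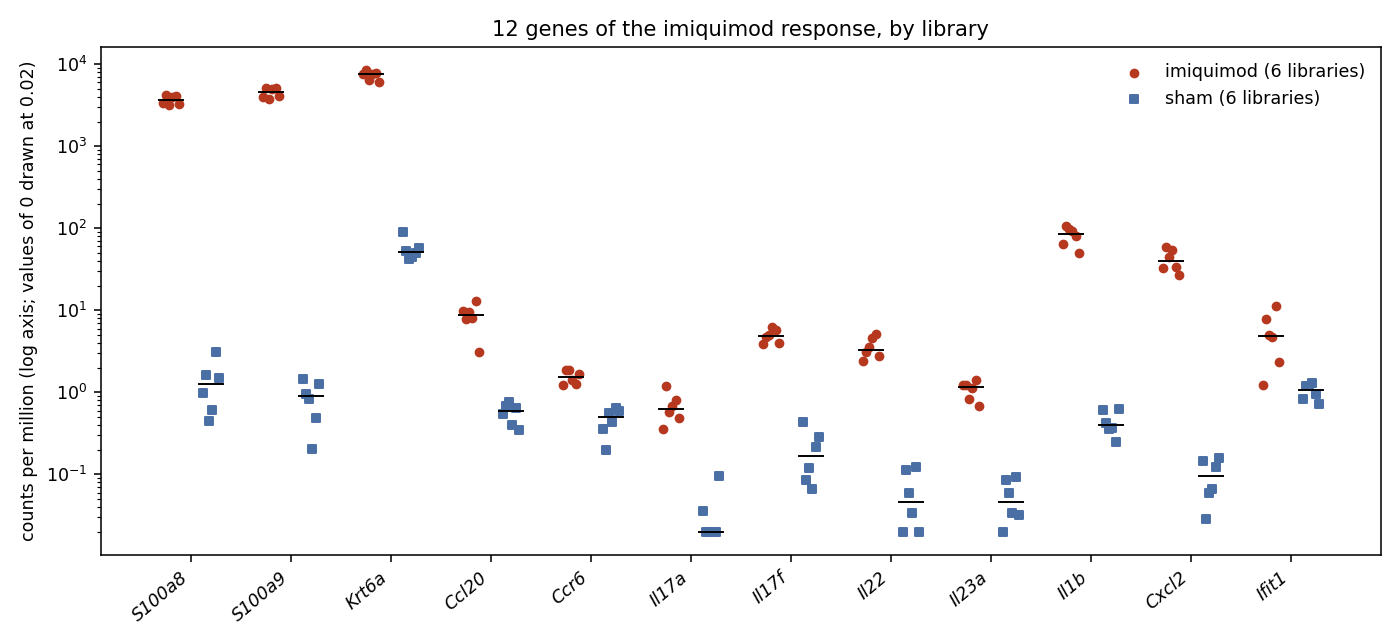
CPM of 12 genes of the imiquimod response in each library, on a log axis, with imiquimod libraries as red circles at the left of each pair and sham libraries as blue squares at the right (values of 0 are drawn at 0.02 CPM). Black bars mark group medians. The groups are apart for every gene except Ifit1, whose lowest imiquimod library, at 1.24 CPM, lies among the sham libraries.

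Most of the remaining members of the IL-23 and IL-17 axis were also higher in imiquimod ears. Of the list, 17 were higher and 1 lower of 19 tested, with a median log2 fold change of 1.72. Il23a, the subunit specific to IL-23, measured 0.684 to 1.41 CPM in imiquimod ears and 0 to 0.0920 CPM in sham ears. Il12b, which encodes the subunit that IL-23 shares with IL-12, measured 1.27 to 4.59 CPM in imiquimod ears and 0 to 0.158 CPM in sham ears. Both were apart between groups, at log2 fold changes of 4.28 ± 0.38 and 5.72 ± 0.69. Their receptor subunit Il23r was also higher (1.70 ± 0.44). Downstream of the IL-17 receptor, Nfkbiz, the inhibitor-like cofactor that switches on IL-17 target genes, measured 107 to 144 CPM in imiquimod ears and 16.3 to 21.4 CPM in sham ears. Zc3h12a encodes Regnase-1, a ribonuclease that limits the same response, and it was 12.2-fold higher, at 3.61 ± 0.10. The receptor genes Il17ra and Il17rc changed less, at 0.82 ± 0.06 and 0.83 ± 0.05. The decoy receptor gene Il22ra2 was not called, with a median of 7.91 CPM in imiquimod ears and 7.00 CPM in sham ears.

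Genes of imiquimod sensing rose as a group. Of these, 14 were higher and 2 lower of 16 tested, with a median log2 fold change of 1.21. Tlr7, the receptor that imiquimod engages, measured 9.55 to 11.3 CPM in imiquimod ears and 3.22 to 5.15 CPM in sham ears. Tlr8 measured 5.57 to 7.24 CPM in imiquimod ears and 0.681 to 1.23 CPM in sham ears, and the groups of neither receptor overlapped. Their log2 fold changes were 1.25 ± 0.14 and 2.67 ± 0.18. Myd88 and Traf6, which pass on the signal of these receptors, rose by 1.37 ± 0.07 and 1.17 ± 0.06. Nlrp3, the core of an inflammasome, rose by 3.43 ± 0.23. Slc15a3, an endosomal transporter, rose by 2.78 ± 0.20. The 2 lower members were Tlr3, a sensor of double-stranded RNA (-0.46 ± 0.12), and the kinase gene Irak1 (-0.28 ± 0.04).

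Of the IL-1 and IL-36 family, 13 were higher and 1 lower of 14 tested, at a median log2 fold change of 1.77. Il1b, the inflammasome-processed cytokine of myeloid cells, measured 49.8 to 107 CPM (median 86.3) in imiquimod ears, against 0.245 to 0.632 CPM (median 0.397) in sham ears. Il36a, an epidermal cytokine, measured 145 to 205 CPM (median 182) in imiquimod ears, against 1.85 to 4.03 CPM (median 3.38) in sham ears. The groups lay far apart for both, at 7.54 ± 0.50 and 5.78 ± 0.13. The antagonists rose beside the agonists: Il1rn, the IL-1 receptor antagonist, by 2.36 ± 0.10, and Il36rn, the IL-36 receptor antagonist, by 2.84 ± 0.08. Il36b and Il36g rose by 2.95 ± 0.09 and 3.10 ± 0.11. The decoy receptor Il1r2 was the only lower member, at -0.88 ± 0.07.

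Among related cytokines, Il19 of the IL-20 subfamily measured 19.4 to 28.5 CPM in imiquimod ears and 0 to 0.0632 CPM in sham ears, a log2 fold change of 9.38 ± 0.62. Il24 rose by 5.69 ± 0.79, whereas Il20 was not called, with a median of 0.405 CPM in imiquimod ears and 0.397 CPM in sham ears. The receptor genes Il20ra and Il20rb fell (-1.93 ± 0.14 and -0.85 ± 0.07). Of the IL-6, TNF and colony-stimulating factor list, 9 were higher and 4 lower of 14 tested. Osm rose by 3.92 ± 0.31 and its receptor gene Osmr by 1.44 ± 0.12. Il6, an inducer of the acute phase, measured 0.977 to 2.22 CPM in imiquimod ears and 0.0295 to 0.254 CPM in sham ears. Csf3, which encodes granulocyte colony-stimulating factor, measured 0.779 to 1.91 CPM in imiquimod ears and 0 to 0.109 CPM in sham ears. Both rose without overlap, by 3.73 ± 0.50 and 4.68 ± 0.51. Lifr and Il6ra fell, at -0.86 ± 0.06 and -0.52 ± 0.05, and Il11 was not called (-0.50 ± 0.27).

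Inflammatory chemokines rose almost without exception. Of the list, 13 were higher and 0 lower of 14 tested, with a median log2 fold change of 3.04. Cxcl2, which draws neutrophils through CXCR2, measured 26.9 to 58.7 CPM (median 39.5) in imiquimod ears, against 0.0284 to 0.158 CPM (median 0.0949) in sham ears. Cxcl5, another ligand of that receptor, measured 19.6 to 35.9 CPM (median 29.2) in imiquimod ears, against 0 to 0.580 CPM (median 0.234) in sham ears. Neither gene's groups overlapped, and the log2 fold changes were 8.73 ± 0.64 and 6.88 ± 0.49. The related Cxcl1 and Cxcl3 rose by 4.66 ± 0.43 and 7.88 ± 0.71. Ccl3 and Ccl4, chemokines made by myeloid cells and lymphocytes, rose by 5.82 ± 0.48 and 6.20 ± 0.54. Cxcl16 rose by 1.18 ± 0.06. Cxcl9, a target of interferon gamma, was the uncalled member, with a median of 1.09 CPM in imiquimod ears and 0.930 CPM in sham ears. Among homeostatic and type 2 chemokines 6 were higher and 4 lower of 11 tested. Cxcl13, which attracts B cells, rose by 5.00 ± 0.31, and Ccl8 rose by 3.33 ± 0.16. Ccl27a, the keratinocyte chemokine of resting skin, was lower, at 1.15 to 2.34 CPM in imiquimod ears and 11.7 to 20.97 CPM in sham ears. Ccl24, an eosinophil chemokine, fell too, and the log2 fold changes were -3.14 ± 0.18 and -2.13 ± 0.26. Ccl17 was not called (0.66 ± 0.42).

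Antimicrobial and acute-phase proteins changed in 1 direction. Of 19 listed genes 16 were tested, and all 16 were higher, with a median log2 fold change of 4.86. Defb4, the inducible beta-defensin of keratinocytes, had 5371 counts in the imiquimod libraries and 1 count in the sham libraries, a ratio of 5433 (95% interval 975 to 214637). Defb3 had 6273 counts against 2, a ratio of 3173 (95% interval 878 to 26204). These intervals cover counting error only. Saa3, an acute-phase protein made locally in inflamed tissue, measured 97.7 to 162 CPM in imiquimod ears and 0.0614 to 0.217 CPM in sham ears. Lcn2, which withholds iron from bacteria, measured 107 to 171 CPM in imiquimod ears and 3.16 to 7.21 CPM in sham ears. Slpi, a protease inhibitor with antimicrobial activity, measured 101 to 176 CPM in imiquimod ears and 1.48 to 2.89 CPM in sham ears. None of these genes had overlapping groups, and the log2 fold changes were 9.88 ± 0.64, 4.77 ± 0.25 and 6.00 ± 0.24. Smaller rises were those of Pglyrp3 (3.52 ± 0.11), Pglyrp4 (2.08 ± 0.10), Defb1 (1.58 ± 0.09) and Defb6 (1.45 ± 0.08). Camp and Ltf, stored in neutrophil granules, had too few counts to be tested.

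Neutrophil genes rose in imiquimod ears. Of 16 listed genes 12 were tested, and all 12 were higher, with a median log2 fold change of 5.22. Cxcr2, the chemokine receptor of mature neutrophils, measured 28.5 to 42.3 CPM in imiquimod ears and 1.15 to 2.15 CPM in sham ears. Csf3r, the receptor of granulocyte colony-stimulating factor, measured 55.4 to 101 CPM in imiquimod ears and 0.978 to 2.05 CPM in sham ears. Their groups were apart, at 4.34 ± 0.16 and 5.56 ± 0.30. The triggering receptor Trem1 had 1648 counts against 1, a ratio of 1667 (95% interval 299 to 65885), and the formyl peptide receptor Fpr1 had 672 against 1, a ratio of 679.8 (95% interval 122 to 26889). Fpr2, encoding a second such receptor, rose by 7.66 ± 0.39. The defining surface marker Ly6g had 47 counts against 0, at least 15.8-fold higher with the sham group set at 3 counts. Genes of immature neutrophils had few counts in both groups: Elane had 4 counts against 2. Mpo had 2 counts in imiquimod ears against 49 in sham ears, a ratio of 0.0413 (95% interval 0.00486 to 0.157).

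Of the macrophage and monocyte list, 16 were higher and 2 lower of 19 tested, at a median log2 fold change of 1.40. Fcgr1, the high-affinity IgG receptor, measured 12.5 to 35.8 CPM in imiquimod ears and 0.879 to 2.15 CPM in sham ears. Ccr2, the receptor of inflammatory monocytes, measured 56.4 to 81.9 CPM in imiquimod ears and 6.96 to 12.4 CPM in sham ears. Arg1, an enzyme of arginine breakdown that macrophages and keratinocytes can express, measured 85.8 to 118 CPM in imiquimod ears and 4.602 to 6.57 CPM in sham ears. In all of them the groups were apart, at 3.98 ± 0.35, 2.95 ± 0.17 and 4.32 ± 0.21. Ms4a7 and Mrc1 rose by 2.68 ± 0.13 and 1.95 ± 0.12. The lower members were Mertk, a receptor for dying cells (-0.87 ± 0.09), and Lyve1, which resident macrophages share with lymphatic vessels (-0.31 ± 0.08). Nos2 was not called (0.24 ± 0.25).

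Lymphocyte genes went in both directions, as did genes at large. Of the T and cytotoxic lymphocyte list 9 were higher and 5 lower of 17 tested, beside 38.1% and 39.9% of all genes. Foxp3, the lineage factor of regulatory T cells, measured 5.16 to 7.19 CPM (median 5.77) in imiquimod ears, against 0.184 to 0.709 CPM (median 0.253) in sham ears. Ctla4, an inhibitory receptor abundant on the same cells, measured 4.08 to 5.77 CPM in imiquimod ears and 0.184 to 0.567 CPM in sham ears. The groups of both were apart, at 4.18 ± 0.26 and 3.73 ± 0.24, and Icos and Il2ra rose with them (3.47 ± 0.21 and 2.26 ± 0.20). Trac, the constant region of the alpha beta T-cell receptor, rose by 2.16 ± 0.23. Cd4, carried by T cells and by some myeloid cells, rose by 1.96 ± 0.17. Gzmb, a granule protease, rose by 4.17 ± 0.23. Other cytotoxic genes fell: Prf1, encoding perforin, measured 0.389 to 1.19 CPM in imiquimod ears and 3.59 to 4.91 CPM in sham ears. Nkg7, a granule protein, measured 0.248 to 0.981 CPM in imiquimod ears and 2.95 to 3.54 CPM in sham ears. Their groups did not overlap, at -2.27 ± 0.22 and -2.57 ± 0.27. The shared T-cell receptor subunits Cd3e and Cd3g were lower as well, at -1.62 ± 0.12 and -1.98 ± 0.14, and Lck and Zap70, which signal from that receptor, were not called (0.18 ± 0.15 and -0.38 ± 0.20). Ifng had 5 counts against 2 and was not tested.

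Mouse epidermis carries a resident gamma delta T-cell population with a fixed receptor. Of the gamma delta list 3 were higher and 9 lower of 12 tested. Trdc, the constant region of the delta chain, measured 3.65 to 7.61 CPM (median 4.30) in imiquimod ears, against 13.3 to 18.2 CPM (median 15.6) in sham ears. Trdv4, a delta variable segment, measured 0.202 to 0.994 CPM in imiquimod ears and 3.41 to 5.94 CPM in sham ears. Trgv5, a gamma variable segment, measured 0 to 0.261 CPM in imiquimod ears and 1.13 to 1.65 CPM in sham ears. Xcl1, a chemokine that the resident epidermal cells make, measured 0 to 0.127 CPM in imiquimod ears and 1.49 to 2.86 CPM in sham ears. The groups were apart in each, and the log2 fold changes were -1.72 ± 0.18, -3.18 ± 0.26, -3.43 ± 0.42 and -5.42 ± 0.59. Blk and Scart2, which mark IL-17-producing gamma delta cells in mice, were among the 3 higher members. The list as a whole had a median log2 fold change of -1.21. Blk measured 0.770 to 3.58 CPM in imiquimod ears and 0.312 to 0.652 CPM in sham ears, and Scart2 measured 6.76 to 14.6 CPM in imiquimod ears and 2.27 to 3.45 CPM in sham ears. The log2 fold changes of Blk and Scart2 were 2.13 ± 0.34 and 1.74 ± 0.24. Segment names for gamma chains differ between naming systems, so the segments are called here as the deposited table names them. The Skint genes, expressed in epidermis and thymus and needed for selection of the epidermal population, were lower as well: of 11 tested 0 were higher and 9 lower, among them Skint9 (-3.16 ± 0.25) and Skint7 (-3.99 ± 0.39), while Skint2 and Skint3 were not called (0.09 ± 0.29 and 0.15 ± 0.13).

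Langerhans cells, the resident antigen-presenting cells of the epidermis, are marked by Cd207, which encodes langerin. Cd207 measured 3.48 to 6.09 CPM (median 4.78) in imiquimod ears, against 21.5 to 24.9 CPM (median 22.2) in sham ears. No imiquimod library reached the sham range, and the log2 fold change was -2.24 ± 0.12 (adjusted p = 3.33e-17, edgeR). Ccr7, the receptor with which dendritic cells migrate to lymph nodes, moved the other way, with 2.08 to 4.43 CPM in imiquimod ears and 0.290 to 1.08 CPM in sham ears and a log2 fold change of 2.34 ± 0.22. Over the whole list 3 were higher and 3 lower of 10 tested, with Epcam, Ly75, Itgax and Cd83 not called in edgeR's test (log2 fold changes of 0.18, 0.25, 0.18 and 0.20). With RLE scaling 6 were higher, since Epcam, Ly75 and Itgax then passed. Of 6 plasmacytoid dendritic cell genes tested 1 was higher and 4 were lower, and its defining gene Siglech measured 0.195 to 0.425 CPM in imiquimod ears and 0.245 to 0.915 CPM in sham ears, with overlapping groups and a log2 fold change of -0.78 ± 0.36. Its call was lost when any of imiquimod libraries 9 to 12 or sham libraries 3, 4 or 6 was left out, and Siglech then lay between -0.78 and -0.49. Of 17 genes of interferon gamma and antigen presentation tested 9 were higher and 5 lower, at a median of 0.30. Of its class II genes, Cd74 was at -0.48 ± 0.09 and H2-Ab1 at -0.49 ± 0.09, and of its class I genes H2-D1 was at 0.48 ± 0.11 and B2m was not called with a median of 292 CPM in imiquimod ears and 301 CPM in sham ears. Among mast cell genes, Cma1, encoding a chymase, was not called with a median of 40.2 CPM in imiquimod ears and 40.8 CPM in sham ears. Mcpt4, another chymase gene, was lower (-0.22 ± 0.06), as was Mrgprb2, the receptor of connective tissue mast cells (-1.77 ± 0.18). Hdc, which makes histamine and is also expressed in neutrophils, rose by 2.85 ± 0.25. Of the mast cell list 2 were higher and 7 lower of 11 tested. Of the B and plasma cell list 2 were higher and 0 lower of 4 tested, among them Cd79b (2.44 ± 0.26).

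Type I interferons signal through a complex that includes STAT2 and IRF9 to a shared DNA element. Summed over the genes under it, the highest imiquimod library stood 2.82-fold above the lowest. The same ratio was 1.14 for the IL-23 and IL-17 list and 1.27 for the antimicrobial list, sums that follow their most abundant members. Single genes of the IL-23 and IL-17 axis also varied widely among imiquimod libraries, among them Ccl20 (4.16-fold) and Il12b (3.61-fold). Of 25 interferon-induced genes tested, 16 were called higher, 0 lower and 9 were not called in edgeR's test. Of the 9 uncalled genes, Irf9 passed an unadjusted p of 0.05, and the others did not. Irf9 was called in DESeq2's test and with RLE scaling. Ifit1, an antiviral RNA-binding protein, measured 1.24 to 11.4 CPM (median 4.87) in imiquimod ears, against 0.727 to 1.31 CPM (median 1.07) in sham ears. Oas1a, an activator of RNA decay, measured 3.79 to 16.96 CPM (median 7.96) in imiquimod ears, against 0.709 to 1.11 CPM (median 0.871) in sham ears. Isg15, a ubiquitin-like modifier, measured 1.60 to 8.00 CPM (median 3.94) in imiquimod ears, against 0.369 to 1.23 CPM (median 0.774) in sham ears. The Ifit1 groups overlapped by 1 imiquimod library, and those of Oas1a and Isg15 did not. The log2 fold changes were 2.38 ± 0.55, 3.36 ± 0.47 and 2.53 ± 0.51 (adjusted p = 3.12e-04, 3.33e-07 and 7.46e-05, edgeR).

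Summed over the 25 genes, imiquimod libraries 7 to 12 measured 163, 459, 270, 256, 399 and 200 CPM, against 154 to 168 CPM in the sham libraries. Library 8 was the highest imiquimod library in 19 of the 25 genes and library 11 in the other 6, and library 7 was the lowest in 23. Library 8 exceeded all 6 sham libraries in all 25 genes, and library 7 did so in 11. Irf7, the factor that amplifies interferon production, followed the same order, with 8.67, 62.8, 23.5, 22.3, 44.04 and 11.4 CPM in imiquimod libraries 7 to 12 and 4.84 to 6.50 CPM in the sham libraries. Ifit3 was not called, with 4.28 to 25.5 CPM in imiquimod ears and 7.90 to 9.64 CPM in sham ears, so that imiquimod libraries lay both below and above the sham range. Ifit2, Ifit3b, Irf9, Stat2, Ifih1, Rigi, Cmpk2 and Xaf1 were not called either, and their log2 fold changes lay between -0.21 and 0.38. Without libraries 8 and 11, 13 of the 25 genes were called higher and Ifit2 was called lower, with Ifit1 at 1.69 (adjusted p = 0.0086, edgeR), Oas1a at 2.81 and Irf7 at 1.59. These libraries were chosen from the same values, as the highest 2 in 24 of the 25 genes. Lower fold changes without them, that of Ifit2 included, follow by construction.

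**Figure D3:**
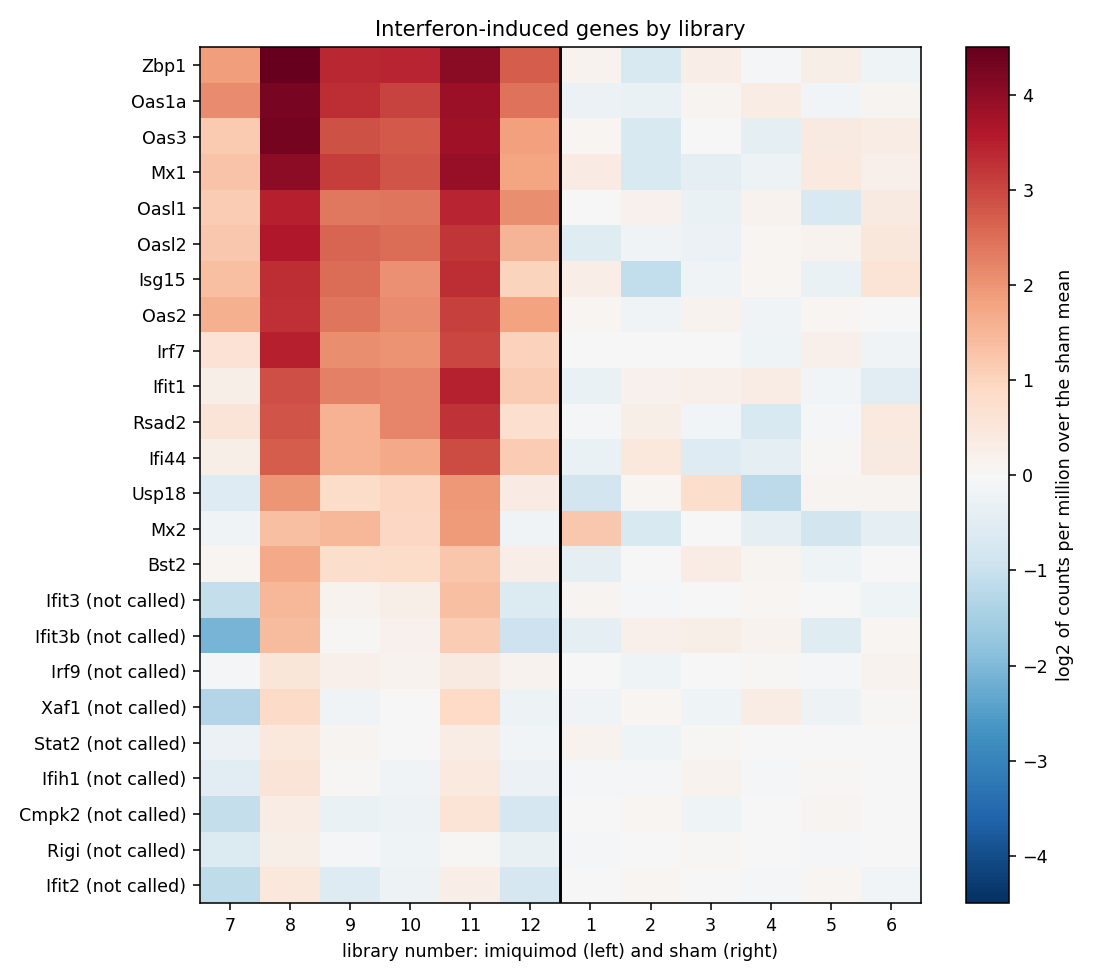
Log2 of CPM over the sham mean for 24 of the interferon-induced genes (rows, in order of fold change) in the 6 imiquimod libraries (left of the line) and the 6 sham libraries (right of it). Red is above and blue below the sham mean. Libraries 8 and 11 are the deepest red in 23 of the 24 genes drawn, and library 7 the palest or bluest in 22.

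Promoter sequences are shown for 4 of these genes because they carry the element that interferon-activated factors bind: 3 are called genes and Ifit3 is not called. They come from RefSeq (assembly GRCm38.p6, 250 bases before to 50 after the gene's start, 5′ to 3′ on the gene's strand), whereas the deposited counts were made on GRCm39. Ifit1 lies at chr19:34640639-34640938 (plus strand), Oas1a at chr5:120907476-120907775 (minus strand), Isg15 at chr4:156200769-156201068 (minus strand) and Ifit3 at chr19:34583279-34583578 (plus strand). Capitals mark matches to the interferon-stimulated response element, written as GAAA, any bases NN, then GAAA, and searched on both strands, with overlapping matches counted separately.
Ifit1: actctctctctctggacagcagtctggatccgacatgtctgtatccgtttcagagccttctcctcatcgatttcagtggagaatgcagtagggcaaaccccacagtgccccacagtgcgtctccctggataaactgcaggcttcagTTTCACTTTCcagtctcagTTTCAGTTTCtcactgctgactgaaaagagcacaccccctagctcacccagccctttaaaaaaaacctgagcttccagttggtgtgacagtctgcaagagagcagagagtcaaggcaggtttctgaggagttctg
Oas1a: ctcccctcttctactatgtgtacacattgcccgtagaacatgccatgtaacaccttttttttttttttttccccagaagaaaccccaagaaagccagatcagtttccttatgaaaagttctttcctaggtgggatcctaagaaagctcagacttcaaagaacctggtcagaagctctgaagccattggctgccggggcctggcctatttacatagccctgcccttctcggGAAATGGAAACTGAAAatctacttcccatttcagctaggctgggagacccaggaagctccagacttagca
Isg15: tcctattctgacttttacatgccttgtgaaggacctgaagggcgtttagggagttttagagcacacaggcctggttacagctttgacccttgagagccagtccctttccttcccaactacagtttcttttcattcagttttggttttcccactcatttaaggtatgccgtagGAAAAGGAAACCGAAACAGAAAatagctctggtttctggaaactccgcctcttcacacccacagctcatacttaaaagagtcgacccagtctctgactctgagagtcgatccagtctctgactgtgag
Ifit3: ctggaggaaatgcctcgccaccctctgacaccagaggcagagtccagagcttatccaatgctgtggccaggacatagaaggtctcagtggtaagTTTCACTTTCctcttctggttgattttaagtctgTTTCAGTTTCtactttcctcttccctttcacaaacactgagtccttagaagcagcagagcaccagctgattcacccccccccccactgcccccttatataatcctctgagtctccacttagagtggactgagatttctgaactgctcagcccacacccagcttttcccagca
Of 25 listed genes 19 had a promoter in the table, and 11 of them (57.9%) held the element, as did 943 of all 27025 promoters (3.49%). Ifit3 held 2 matches without being called, and Irf7 and Oasl2 held 0 in this window and were called. A match describes the letters only.

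Keratins that mark wounded and hyperproliferative epidermis rose strongly. All 4 stress keratins were higher, at a median log2 fold change of 8.15. Krt16 measured 7656 to 8915 CPM (median 8532) in imiquimod ears, against 4.23 to 38.8 CPM (median 10.01) in sham ears. Krt17 measured 1276 to 1611 CPM (median 1397) in imiquimod ears, against 193 to 213 CPM (median 202) in sham ears. Krt6b measured 7311 to 9068 CPM (median 8306) in imiquimod ears, against 0.856 to 31.5 CPM (median 1.75) in sham ears. All groups were apart, and the log2 fold changes were 9.26 ± 0.39, 2.82 ± 0.14 and 10.37 ± 0.66. Sham library 1 was the highest sham library in Krt16 and Krt6b, at 38.8 and 31.5 CPM. In CPM, which also grow with transcript length, the largest gains of mean were those of Krt1 (17874), Krt14 (11439.6), Krt16 (8369.9), Krt6b (8189.6) and Krt6a (7279). Krt1, the keratin of the spinous layer, reached 14388 to 20602 CPM in imiquimod ears and 489 to 729 CPM in sham ears. Its usual partner Krt10 measured 9204 to 16319.7 CPM in imiquimod ears and 7286 to 9814 CPM in sham ears, with overlapping groups, so the pair changed unequally at 5.05 ± 0.12 and 0.78 ± 0.13.

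Genes of cross-linked envelope proteins also rose by large ratios. Of the Sprr family, encoding small proline-rich envelope proteins, 13 were higher and 0 lower of 14 tested, with a median log2 fold change of 9.08. Sprr1b measured 1147 to 1572 CPM in imiquimod ears and 2.24 to 9.33 CPM in sham ears. Sprr2d measured 761 to 996 CPM in imiquimod ears and 0.254 to 1.17 CPM in sham ears. Sprr2b had the largest fitted log2 fold change of all genes tested, with 184 to 305 CPM in imiquimod ears and 0 to 0.101 CPM in sham ears and a log2 fold change of 12.69 ± 0.51 over 6 counts in the sham libraries. The members of this family are near copies, so values of single Sprr2 genes are uncertain. Sprr4 was not called (-0.03 ± 0.30). The Lce3 genes, late envelope genes induced by injury, were higher in all 6 cases, with Lce3b at 7.53 ± 0.22 and Lce3c at 5.90 ± 0.17. The Lce1 genes of normal cornification split, with 7 higher, 1 lower and 6 not called of 14 tested, and Lce1m fell (-2.90 ± 0.26) while Lce1k rose by 1.40 ± 0.18. All 7 stefin A and Cstdc genes, a cluster of cysteine protease inhibitors, were higher. Stfa3 measured 442 to 500.3 CPM in imiquimod ears and 0.236 to 1.05 CPM in sham ears. Cstdc5 measured 1323 to 1509.8 CPM in imiquimod ears and 0.0336 to 3.59 CPM in sham ears. Stfa2l1 had 1329 counts against 0, at least 448-fold higher with the sham group set at 3 counts. These cluster members are also near copies. The gap-junction genes Gjb2 and Gjb6, known to be induced in psoriatic and wounded epidermis, were among the strongly induced genes. Gjb2 measured 847 to 1256 CPM in imiquimod ears and 8.74 to 13.99 CPM in sham ears, and Gjb6 measured 116 to 157 CPM in imiquimod ears and 1.04 to 1.80 CPM in sham ears. Their log2 fold changes were 6.59 ± 0.17 and 6.88 ± 0.13, and Gja1 rose by 2.93 ± 0.08, while Gjb5 fell (-1.21 ± 0.14).

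Of 23 suprabasal and cornified layer genes 17 were higher and 6 lower, with a median log2 fold change of 1.25. Rptn, encoding repetin, measured 797 to 1309 CPM in imiquimod ears and 4.20 to 7.02 CPM in sham ears. Tgm3, a transglutaminase that cross-links the envelope, measured 672 to 817 CPM in imiquimod ears and 42.5 to 57.3 CPM in sham ears. Flg, encoding filaggrin, measured 1749 to 3980.2 CPM in imiquimod ears and 175 to 302 CPM in sham ears. In each the groups were apart, at 7.59 ± 0.20, 3.93 ± 0.07 and 3.67 ± 0.21. Casp14, the caspase of cornification, rose by 4.32 ± 0.11, and the desmosomal cadherin Dsc1 by 2.55 ± 0.06. Flg2, the close relative of filaggrin, moved the other way, with 9.11 to 36.4 CPM in imiquimod ears and 266 to 476 CPM in sham ears and a log2 fold change of -4.04 ± 0.41. Krt2, the keratin of the upper spinous and granular layers of the ear, fell to 1099.8 to 3221 CPM (median 2558) in imiquimod ears, against 6996 to 9611 CPM (median 8068) in sham ears. Krt77 and Krt24, 2 further keratin genes, were also lower, at -5.07 ± 0.40 and -6.36 ± 0.58, and sham library 2 was low in Krt77, at 99.5 CPM. Loricrin (Lor) was modestly higher with overlapping groups, at 720.5 to 1488 CPM in imiquimod ears and 571 to 1026 CPM in sham ears and a log2 fold change of 0.65 ± 0.18.

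Basal-layer genes split. Krt14 and Krt5, the paired keratins of the basal layer, rose by 1.97 ± 0.07 and 0.67 ± 0.03. Krt15, a basal keratin of resting epidermis and hair follicle stem cells, fell to 77.0 to 142 CPM (median 83.8) in imiquimod ears, against 1171 to 1562 CPM (median 1279.7) in sham ears. The groups were well apart, at a log2 fold change of -3.80 ± 0.18 (adjusted p = 1.28e-16, edgeR). Hemidesmosome genes Col17a1 and Dst fell (-1.11 ± 0.07 and -1.62 ± 0.08), and the integrin gene Itga6 rose (0.81 ± 0.04). Over the list 5 were higher and 7 lower of 12 tested, beside 38.1% and 39.9% of all genes.

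Cell cycle genes rose together. All 21 mitosis genes and all 23 DNA replication genes were higher, at median log2 fold changes of 2.11 and 1.17. Cdc20, which activates the anaphase complex, measured 99.1 to 123 CPM (median 112) in imiquimod ears, against 14.6 to 20.4 CPM (median 15.6) in sham ears. Mki67, the proliferation marker, measured 178 to 206 CPM (median 192) in imiquimod ears, against 45.8 to 63.3 CPM (median 47.8) in sham ears. Mcm5, of the replicative helicase, measured 91.1 to 107.6 CPM (median 102) in imiquimod ears, against 19.7 to 27.6 CPM (median 22.9) in sham ears. The groups did not overlap, and the log2 fold changes were 2.74 ± 0.08, 1.91 ± 0.06 and 2.14 ± 0.07. The mitosis list summed to 1328 to 1439 CPM in imiquimod ears, against 276 to 411 CPM in sham ears. All 15 ribosome biogenesis genes were higher too, at a median of 1.14, with Ncl, encoding nucleolin, at 1.33 ± 0.05 and Npm1 at 1.31 ± 0.05.

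The promoters of Cdc20 and Top2a are shown as examples of the cell cycle element that mitotic genes share, written as TTTGAA and marked in capitals on either strand, in the same RefSeq coordinates as above. Cdc20 lies at chr4:118437294-118437593 (minus strand) and Top2a, encoding topoisomerase II alpha, at chr11:99024140-99024439 (minus strand).
Cdc20: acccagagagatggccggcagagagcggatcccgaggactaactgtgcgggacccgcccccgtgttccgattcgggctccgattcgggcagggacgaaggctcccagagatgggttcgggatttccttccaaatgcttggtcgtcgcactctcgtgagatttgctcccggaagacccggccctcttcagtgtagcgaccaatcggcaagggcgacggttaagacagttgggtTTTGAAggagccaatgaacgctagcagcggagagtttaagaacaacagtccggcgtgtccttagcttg
Top2a: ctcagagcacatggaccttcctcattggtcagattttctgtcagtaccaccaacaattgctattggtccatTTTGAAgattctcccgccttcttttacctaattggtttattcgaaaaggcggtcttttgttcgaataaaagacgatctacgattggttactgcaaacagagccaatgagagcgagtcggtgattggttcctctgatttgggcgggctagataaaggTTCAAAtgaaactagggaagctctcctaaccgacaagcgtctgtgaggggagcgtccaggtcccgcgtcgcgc
Of 21 mitosis genes 16 had a promoter in the table and 11 of these (68.8%) held the element, against 4893 of all 27025 promoters (18.1%). Bub1 and Ccnb1 held 0 in this window and rose by 2.47 ± 0.07 and 2.36 ± 0.07.

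Transcripts of glycolysis genes were mostly higher. Of 21 glycolysis and hypoxia genes 19 were higher and 1 was lower, at a median log2 fold change of 1.53. Ldha, which makes lactate, measured 1107 to 1195 CPM in imiquimod ears and 344 to 375 CPM in sham ears. Pgam1 and Eno1, the enzymes of the lower pathway, rose by 2.15 ± 0.05 and 2.03 ± 0.05. The glucose transporter gene Slc2a1 rose by 1.79 ± 0.09 and the hypoxia factor Hif1a by 1.81 ± 0.07. Aldoa, which muscle also expresses at a high level, was called higher with RLE scaling and by DESeq2 and not with TMM scaling, with a median of 1130.1 CPM in imiquimod ears and 1088 CPM in sham ears. Respiratory chain genes changed by small amounts: of 14 genes 11 were higher and 1 was lower, with a median log2 fold change of 0.26. The exception among them was Cox7a1, the heart and muscle form of a cytochrome oxidase subunit, which fell (-2.32 ± 0.11).

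Barrier lipid genes and sebaceous genes went opposite ways. Of 17 genes of epidermal ceramide synthesis 15 were higher and 1 was lower. Cers3, the ceramide synthase of the skin barrier, measured 177 to 220.5 CPM in imiquimod ears and 22.9 to 33.7 CPM in sham ears. Abca12, the lipid transporter of lamellar granules, measured 417 to 484 CPM in imiquimod ears and 94.5 to 128 CPM in sham ears. Both were apart between groups, at 2.79 ± 0.09 and 2.04 ± 0.07. Degs2 and Alox12b rose by 3.54 ± 0.15 and 2.29 ± 0.10, and the lower member was Elovl6, a fatty acid elongase (-2.19 ± 0.14). Of the cholesterol list 14 were higher and 3 lower of 18 tested, mostly by less than 1 on the log2 scale, with Sqle at 1.27 ± 0.04. Of 10 sebaceous gland genes 0 were higher and 8 lower, at a median of -1.91. Scd1, the desaturase of sebocytes and adipocytes, measured 1016 to 1274 CPM (median 1199) in imiquimod ears, against 5828 to 6954 CPM (median 6286) in sham ears. Its mean dropped by 5158 CPM, the second largest loss after that of Krt2, which dropped by 5733 CPM. Far2, which makes wax alcohols, and Mc5r, the sebocyte melanocortin receptor, fell (-2.71 ± 0.14 and -3.70 ± 0.22). Dgat2 and Scd3 were not called (-0.05 ± 0.05 and -0.01 ± 0.28).

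Genes of muscle, fat, nerve and cartilage were lower in imiquimod ears. All 16 skeletal muscle genes fell, with a median log2 fold change of -2.28, and the list summed to 1943 to 2488 CPM in imiquimod ears, against 9765 to 10231 CPM in sham ears. Ckm, muscle creatine kinase, measured 61.3 to 83.6 CPM (median 76.2) in imiquimod ears, against 512 to 551 CPM (median 539) in sham ears. Myh4, the fast myosin heavy chain, measured 96.1 to 174 CPM in imiquimod ears and 1044 to 1259 CPM in sham ears. Pvalb, encoding parvalbumin of fast fibres, measured 4.30 to 7.77 CPM in imiquimod ears and 143 to 168 CPM in sham ears. No library of 1 group came near the other, and the log2 fold changes were -2.84 ± 0.08, -3.10 ± 0.14 and -4.78 ± 0.16. All 13 adipocyte genes fell, at a median of -2.15: Adipoq, the adipocyte hormone adiponectin, measured 8.88 to 11.4 CPM in imiquimod ears and 33.03 to 50.2 CPM in sham ears, and Car3 fell (-2.43 ± 0.11). All 13 Schwann cell genes fell, at a median of -1.62, among them the myelin gene Mbp (-1.13 ± 0.03). Of 17 cartilage genes 15 fell, at a median of -1.88. Chad, a cartilage matrix protein, measured 57.3 to 79.7 CPM in imiquimod ears and 574 to 752 CPM in sham ears, and Acan, encoding aggrecan, fell (-1.81 ± 0.06). Col2a1, the defining cartilage collagen, was not called, with a median of 38.5 CPM in imiquimod ears and 42.1 CPM in sham ears. Of 8 melanocyte genes tested, 7 fell, with Pmel at -1.07 ± 0.09 and Tyrp1 at -1.13 ± 0.11.

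**Figure D4:**
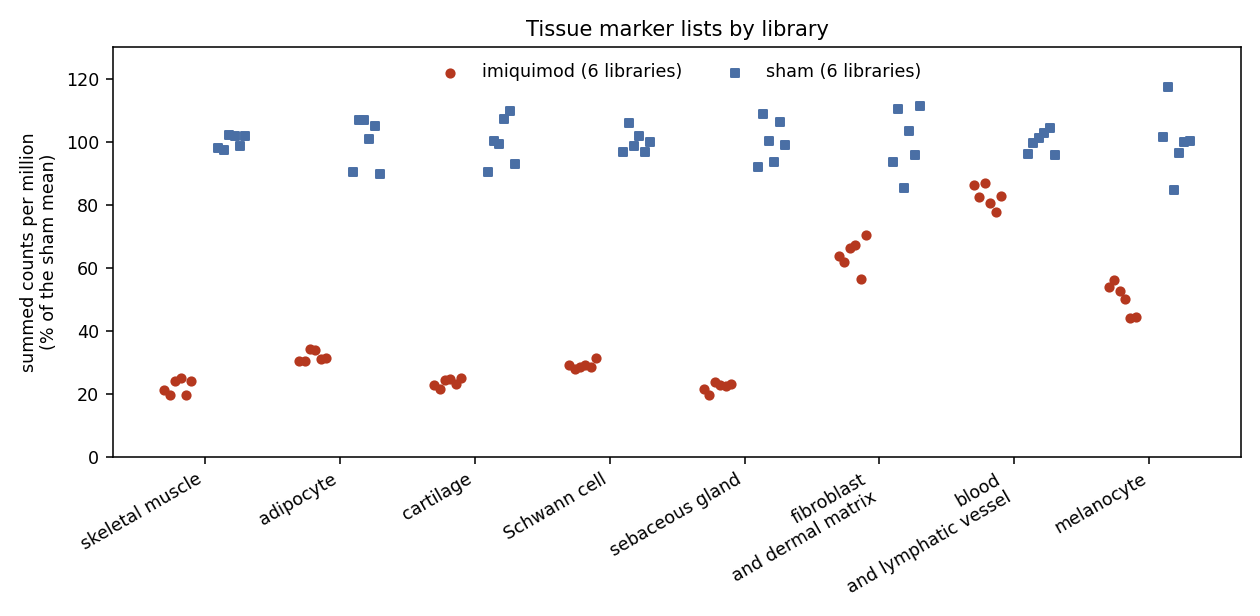
Summed CPM of 8 tissue marker lists in each library, as a percentage of the mean of the sham libraries, with imiquimod libraries as red circles at the left and sham libraries as blue squares at the right of each pair. Skeletal muscle lies at 19.4% to 24.8% of the sham mean in the imiquimod libraries, and the vessel list at 77.7% to 86.9%.

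Dermal matrix genes were lower by smaller amounts. Of 18 fibroblast and dermal matrix genes 1 was higher and 14 were lower, with a median log2 fold change of -0.73. Dcn, encoding decorin, measured 1064 to 1142 CPM (median 1111) in imiquimod ears, against 2728 to 3157 CPM (median 2862) in sham ears. Col1a2, of type I collagen, measured 1201 to 1687 CPM (median 1479) in imiquimod ears, against 2892 to 3801 CPM (median 3424) in sham ears. The groups of both were apart, at -1.40 ± 0.04 and -1.23 ± 0.08. Dpt, encoding dermatopontin, fell (-1.89 ± 0.07). Tnc, a matrix protein of wounds and inflamed dermis, was the only higher member, at 838 to 1195 CPM in imiquimod ears and 124 to 183 CPM in sham ears and a log2 fold change of 2.66 ± 0.14. Col3a1, Pdgfra and Fbn1 were not called (0.16 ± 0.12, 0.02 ± 0.06 and -0.14 ± 0.07). Gsn, the actin-severing protein gelsolin, was lower, at 777 to 954 CPM in imiquimod ears and 5057 to 5795 CPM in sham ears, so that its mean dropped by 4516 CPM. Among proteases and inhibitors of the matrix, Timp1 rose by 3.34 ± 0.18 and Timp3 and Timp2 fell (-2.14 ± 0.07 and -1.53 ± 0.04). Vessel genes changed less: Pecam1 and Cdh5, which mark all endothelium, were not called, at a median of 67.0 CPM in imiquimod ears and 67.5 CPM in sham ears for Pecam1. Of 13 vessel genes 1 was higher and 9 were lower, among them Cldn5 (-1.68 ± 0.10) and Prox1, the lymphatic lineage factor (-1.24 ± 0.13). The adhesion genes Selp and Sele, which capture leukocytes on inflamed endothelium, rose by 2.19 ± 0.17 and 1.67 ± 0.14. Over the 6 endothelial adhesion genes 3 were higher, 1 was lower and 2 were not called, at a median log2 fold change of 0.36.

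Clock-controlled transcripts were lower. Of 17 circadian output and glucocorticoid response genes 1 was higher and 15 were lower, at a median log2 fold change of -1.20. Hlf, a transcription factor of the clock's output arm, measured 21.5 to 41.9 CPM (median 26.2) in imiquimod ears, against 149 to 195 CPM (median 166) in sham ears. Nr1d1, a repressor within the clock, measured 71.2 to 117 CPM (median 88.1) in imiquimod ears, against 224 to 290.1 CPM (median 249) in sham ears. Their groups were apart, at -2.57 ± 0.18 and -1.46 ± 0.11. Npas2 and Dbp fell (-2.18 ± 0.20 and -1.53 ± 0.24). Arntl, which normally runs in antiphase to Nr1d1, was also lower (-0.42 ± 0.10), Clock was slightly higher (0.19 ± 0.05) and Cry1 was not called (0.12 ± 0.09). Tsc22d3 and Fkbp5, textbook targets of glucocorticoids, fell (-1.77 ± 0.14 and -1.08 ± 0.07). The hour at which ears were collected is not given in the sources used here, and its part in these values was not tested.

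The genes with the lowest fold changes outside muscle were of several kinds. Serpina3b, a serine protease inhibitor, measured 0.348 to 1.24 CPM in imiquimod ears and 153 to 183 CPM in sham ears, a log2 fold change of -7.63 ± 0.30. Serpina3j fell (-6.03 ± 0.33), and single genes of this cluster of near copies are uncertain. Krtap3-2, a hair shaft protein, and Serpinb6d, a serpin, fell (-5.71 ± 0.48 and -5.53 ± 0.35). Paqr7, a membrane progestin receptor, measured 6.26 to 8.39 CPM (median 7.72) in imiquimod ears, against 129 to 351 CPM (median 304) in sham ears. Sham library 2 was low among the sham libraries, at 129 CPM, and still far above every imiquimod library, and the log2 fold change was -5.21 ± 0.19. P2rx2, an ATP-gated channel, and Pdzk1, a scaffold protein, fell (-5.09 ± 0.30 and -5.22 ± 0.30). Ces1d, a carboxylesterase of adipocytes and liver, fell (-4.35 ± 0.18).

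The series holds a second comparison at the same label day, 6 imiquimod against 6 sham ears at day 8 of a time course, which shares no library with the one described here. Experiment and any batch that came with it cannot be told apart. The difference between the 2 effects was tested directly, as a contrast of contrasts over the 24 libraries. Of 18118 genes tested, 4730 (26.1%) differed, with 2310 higher (12.7%) and 2420 lower (13.4%) in the start-day experiment, and 718 (3.96%) differed by at least 1 on the log2 scale. Across 18198 genes the log2 fold changes of the experiments correlated at Pearson's r of 0.913 and Spearman's rho of 0.890, a description over genes that share libraries within each experiment. Of 5301 of these genes called by at least 1 here and 3873 called so at day 8, 3335 were called in the same direction in both, 62.9% of those here and 86.1% of those at day 8. Opposite directions were called for 3 genes: Actc1, the cardiac form of actin that regenerating muscle expresses, changed by opposite amounts (-1.49 ± 0.21 here and 1.14 ± 0.34 at day 8), and the sparse genes Fbxl13 and 2610028H24Rik were lower here and higher at day 8. The 5301 genes had a median size of 1.61 here and 1.20 at day 8, and 4380 of them were larger here. These genes were selected for their size here, which favours that direction.

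Cornified layer genes differed between the experiments, in a contrast that called 12.7% of all genes higher and 13.4% lower. Of 23 suprabasal and cornified genes 19 had a higher log2 fold change in the start-day experiment and 0 a lower one, at list medians of 1.25 here and -0.17 at day 8. Cdsn, which holds corneocytes together, was at 1.38 ± 0.13 here and -0.62 ± 0.16 at day 8, a difference of 2.04 ± 0.16 (adjusted p = 5.42e-09, edgeR). Klk7, the protease that releases them, changed by 2.13 ± 0.08 here and 0.66 ± 0.13 at day 8, a difference of 1.51 ± 0.15 (adjusted p = 1.80e-07, edgeR). Loricrin was 0.65 ± 0.18 here and -1.12 ± 0.24 at day 8. Krt1 and Krt10 did not pass the test of the difference, at 0.17 and 0.41. All 14 Lce1 genes were higher in this contrast of contrasts, with list medians of 0.58 here and -0.78 at day 8. In ceramide synthesis 14 of 17 genes had a higher change here and 1 a lower one. Pnpla1, which makes the acylceramide that waterproofs skin, and Sdr9c7, an enzyme of the same lipid's attachment, had among the smallest p-values of all genes, with differences of 1.22 ± 0.08 and 1.59 ± 0.10.

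**Figure D5:**
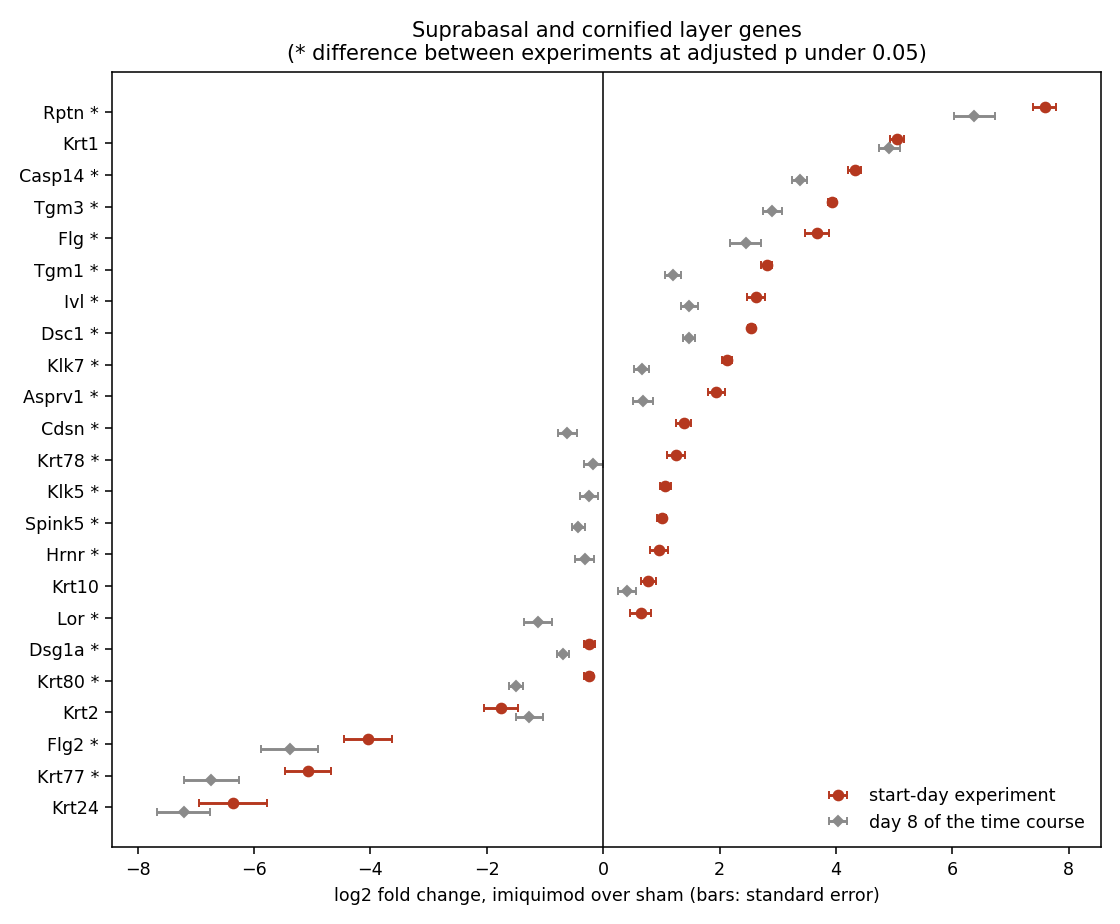
Log2 fold change of imiquimod over sham, with its standard error, for 23 suprabasal and cornified layer genes in the start-day experiment (red circles, 6 against 6 libraries) and at day 8 of the time course (grey diamonds, 6 against 6). An asterisk marks the 19 genes whose difference passed an adjusted p of 0.05. Red points lie to the right of grey ones for all but Krt2, which did not pass.

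Among other lists the counts varied, and some lay near the 12.7% higher and 13.4% lower over all genes in this contrast. Of 11 Skint genes 0 were higher in the contrast and 1 lower, of 12 basal keratinocyte and hemidesmosome genes 3 were higher and 0 lower, and of 12 clade B serpins 4 were higher and 2 lower. Of 14 IL-1 and IL-36 genes 10 had a higher change here and 0 a lower one, with Il36rn 1.48 ± 0.14 and Il36a 1.37 ± 0.23 higher than at day 8. Of 11 EGF ligands and receptors 8 were higher in the contrast, among them Tgfa (1.33 ± 0.10). Of 27 epidermal transcription factors 14 were higher and 1 lower, among them Prdm1, a factor of terminal differentiation (1.69 ± 0.09 here and -0.03 ± 0.12 at day 8). Of the 12 genes plotted by library, S100a9 (2.11 ± 0.42), Krt6a (0.81 ± 0.24) and Il23a (2.00 ± 0.64) had a higher change here, and S100a8, Ccl20, Ccr6, Il17a, Il17f, Il22, Il1b, Cxcl2 and Ifit1 did not pass. The Il23a difference was 1.41 and no longer passed without day 8 sham library 38. With all 82 libraries in the fit S100a9 and Krt6a did not pass (adjusted p = 0.11 and 0.31, edgeR). The Ccl20 difference passed without imiquimod library 12 (1.49) and without day 8 imiquimod library 44 (1.70). None of the 7 stefin A and Cstdc genes passed, and of 12 gamma delta genes only Scart2 and Trgc4 did, both with a lower change here. Psca, a stem cell antigen named from prostate, had the largest difference among the 10 genes of smallest p, at 3.29 ± 0.25, with 2.37 ± 0.16 here and -0.87 ± 0.31 at day 8. The others of these 10 were Pnpla1 and Sdr9c7, given above, AI661453, Rab11fip1, Rnf222, Hip1r, Hephl1 and Gm2a, all higher, and Dpt, which was lower (-0.96 ± 0.07).

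Muscle and matrix genes differed in the opposite direction, beside the same 12.7% higher and 13.4% lower over all genes. Of 16 skeletal muscle genes 15 had a lower log2 fold change here and 0 a higher one, at list medians of -2.28 here and -1.08 at day 8. Myh1, a fast myosin, fell (-1.36 ± 0.09) here and was at -0.06 ± 0.17 at day 8, a difference of -1.26 ± 0.26 (adjusted p = 9.40e-04, edgeR). Acta1, skeletal actin, was -1.84 ± 0.08 here and -0.42 ± 0.15 at day 8. Of 18 matrix genes 17 were lower in the contrast, with Col1a1 at -0.97 ± 0.11 here and -0.07 ± 0.16 at day 8 and Col3a1 at 0.16 ± 0.12 here and 0.95 ± 0.18 at day 8. All 14 respiratory chain genes were lower in it, at list medians of 0.26 here and 0.52 at day 8, with Sdhb -0.40 ± 0.06 and Cox7a1 -1.34 ± 0.19. The share of each tissue in the punches was not measured, and its part in these differences was not tested.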

How the data were processed

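Ear RNA was measured by sequencing. The deposited values are the authors' estimated counts per gene, named as salmon output by the deposited table and made against GRCm39 per the submitters' processing notes. Which salmon version, annotation release and strand setting were used is not stated in any source used here. Estimated counts were rounded to whole numbers before testing.

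Genes were kept by edgeR's filterByExpr (R 4.3.3, edgeR 4.0.16), scaled by TMM factors and tested with a robust quasi-likelihood fit over all 30 libraries of the experiment, 1 coefficient per group. The other 3 groups, which received imiquimod with the CCR6 antagonist IDOR-1117-2520, entered the filter on low counts, the scaling and the estimate of spread, but not the contrast. P-values were adjusted by Benjamini-Hochberg over all genes tested and called below 0.05. The difference from day 8 was a contrast of contrasts over 24 libraries. Alternatives used DESeq2 1.42.0, limma 3.58.1, other scaling, filters and left-out libraries. On simulated counts for 17259 genes the procedure called 70% of genes changed 1.5-fold, 72% of those changed 2-fold and 96% of those changed 4-fold. Only 50 genes were changed at each size, and 4 unchanged genes were called. Far fewer genes were changed there than were called in these data, so scaling under so broad a change was not tested.

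Genes were named by a rule: 12 genes of the response, the 15 highest and 15 lowest fold changes, up to 4 called members per list and direction by adjusted p, the 5 largest gains and losses, the 10 most variable and the 10 smallest p-values of the difference from day 8. Some list members outside the rule were named after their values were seen. The members and the 63 gene lists were chosen with earlier results of these data known. RefSeq promoters (GRCm38.p6) were matched by symbol. Copied libraries were looked for and not found: the lowest chi-square per gene over 30 pairs was 5.69. Intervals and floors cover counting error only. No library was left out of the fit. Some genes of the lists are counted in the lists but not reported here by name.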

Additional observations from a re-analysis of the deposited data

Results flagged for a closer look

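In 46 of 574 groups of 6 libraries, over 287 named genes, the highest or lowest library lay further from its nearest neighbour than Dixon's 95% limit allows. Chance flags about 1 in 20 groups of normally distributed values. The number flagged cannot be set against that rate, because some genes were named for their spread among imiquimod libraries. The sham values flagged for Defb4, Fpr1 and Trem1 each rest on 1 count. Imiquimod library 8 stood apart at 524 CPM for Cd74, 645 CPM for Cdsn, 763 CPM for Dsc1, 699 CPM for Gm6166, 377 CPM for Il36rn, 77 CPM for Irak1, 9204 CPM for Krt10, 20.6 CPM for Lce1k and 9.3 CPM for Lce1m. Imiquimod library 9 stood apart at 2.63 CPM for Btc and 1.27 CPM for Mrgprb2. Imiquimod library 10 stood apart at 0.435 CPM for P2rx2 and 7.61 CPM for Trdc. Imiquimod library 11 stood apart at 365 CPM for AI661453, 77.8 CPM for Hephl1, 161 CPM for Rps18-ps6 and 52.2 CPM for Rps7-ps3. Imiquimod library 12 stood apart at 18.6 CPM for Alox12e, 124 CPM for Gata3, 190 CPM for Gsdmc and 10.2 CPM for Il20ra. Sham library 1 stood apart at 3.59 CPM for Cstdc5, 0.254 CPM for Cxcl3, 12.6 CPM for Gsta4, 38.8 CPM for Krt16, 89.2 CPM for Krt6a, 31.5 CPM for Krt6b, 6.2 CPM for Selp and 0.0362 CPM for Trem1. Sham library 2 stood apart at 0.312 CPM for Blk, 16.9 CPM for Ccnb1, 1.33 CPM for Cxcl13, 4.91 CPM for Prf1 and 39.3 CPM for Skint9. Sham library 3 stood apart at 0.709 CPM for Foxp3. Sham library 4 stood apart at 0.0336 CPM for Defb4, 278 CPM for Dgat2, 0.168 CPM for Il24 and 8.86 CPM for Scd3. Sham library 5 stood apart at 0.368 CPM for Icos. Sham library 6 stood apart at 6.57 CPM for Arg1, 0.0316 CPM for Fpr1, 1.8 CPM for Gjb6, 15.1 CPM for Il36b, 0.822 CPM for Ly6c2 and 8.85 CPM for Tlr3. The log2 fold change differed from that of day 8, in the direct test of the difference, by 0.96 for AI661453, -0.96 for Dpt, 0.79 for Gm2a, 1.60 for Hephl1, 0.81 for Hip1r, 2.00 for Il23a, 0.81 for Krt6a, 1.22 for Pnpla1, 3.29 for Psca, 1.41 for Rab11fip1, 2.00 for Rnf222, 2.11 for S100a9 and 1.59 for Sdr9c7. Library 8, which was the highest imiquimod library in 19 of 25 interferon-induced genes, was low in cornified layer genes such as Krt10, Cdsn and Dsc1, and the part of either in the other was not tested.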

How the results depend on the processing

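The count of 14393 called genes was 14393 with DESeq2 (7283 higher and 7110 lower, 14130 of them called in both), 14365 with RLE scaling, 15391 without a filter, 13082 with a filter of 1 CPM in 6 libraries, 14561 with limma voom and 14074 with only the 12 libraries in the fit. It was 14146 to 14265 with 1 library left out. RLE scaling moved the share of higher calls to 50.6%, against 48.9% with TMM. Calls of at least 1 in log2 size numbered 5421, 2269 higher and 3152 lower, fewer by construction. In settings chosen after seeing the data the count was 13874 without imiquimod libraries 8 and 11 and 13951 without sham libraries 1 and 2. The difference from day 8 was called for 4137 to 4995 genes under the other settings and for 4328 to 4854 with 1 library left out. Over 287 named genes, 5652 of 5729 values under alternatives kept their side of the threshold and, where called, their direction. So did 653 of 658 values of the difference from day 8 over 22 results. Of 2520 list counts 2495 stayed close to the main count, a measure that does not follow single members. Rps7-ps3 (1.01) ranged between -0.32 and 1.19 with 1 library left out, turning round without imiquimod library 11, and was at -0.31 without libraries 8 and 11. No paired analysis was possible because the imiquimod libraries are numbered 7 to 12 and the sham libraries 1 to 6, and the day 8 groups share no numbers either. Genes with few sham counts, such as the cytokines and Defb4, have loosely fixed fold changes at this depth.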

Other observations

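Further gene lists held members that differed between the groups, beside 38.1% of all genes called higher and 39.9% called lower. Alox8, a lipoxygenase of stressed mouse epidermis, measured 206 to 382 CPM (median 294) in imiquimod ears, against 0.411 to 0.907 CPM (median 0.682) in sham ears, with a log2 fold change of 8.83 ± 0.29. Alox12e, a related epidermal lipoxygenase, moved the other way, with 5.94 to 18.6 CPM in imiquimod ears and 102 to 187 CPM in sham ears and a log2 fold change of -4.03 ± 0.26. Ptges, which makes prostaglandin E2, rose by 2.30 ± 0.10, and Ltc4s, which makes leukotriene C4, fell (-2.07 ± 0.14). Of 15 eicosanoid enzymes 8 were higher and 4 lower, with 3 not called and 4 whose groups overlapped. Uox, encoding urate oxidase, measured 75.7 to 109.9 CPM (median 101) in imiquimod ears, against 0 to 0.134 CPM (median 0.0329) in sham ears, and all libraries of one group were far from the other. Xdh, which makes urate, rose by 1.43 ± 0.05, and of 10 purine breakdown genes 7 were higher and 3 lower. Slc7a11, the cystine transporter, measured 144 to 219 CPM (median 195) in imiquimod ears, against 0.532 to 2.01 CPM (median 1.39) in sham ears, a log2 fold change of 7.16 ± 0.26. Slc7a5, a transporter of large neutral amino acids, rose by 2.56 ± 0.08. Gsta4, a glutathione transferase for lipid aldehydes, measured 231 to 355 CPM in imiquimod ears and 6.70 to 12.6 CPM in sham ears, whereas Gstm1 fell (-1.995 ± 0.07), and of 17 detoxification genes 5 were higher and 12 lower. Gsdmc, a pore-forming gasdermin, measured 120.1 to 190.5 CPM in imiquimod ears and 0.620 to 3.07 CPM in sham ears, and of 12 cell death and inflammasome genes 11 were higher and 1 was lower.

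Growth and signalling genes differed by direction. Of 11 EGF ligands and receptors 10 were higher and 1 was lower. Nrg1, a ligand of ERBB3, measured 12.9 to 25.1 CPM in imiquimod ears and 0.695 to 1.52 CPM in sham ears and Tgfa, a ligand of the EGF receptor, measured 69.1 to 103 CPM in imiquimod ears and 15.96 to 19.7 CPM in sham ears, while Btc, encoding betacellulin, fell (-1.47 ± 0.25). Wnt genes went the other way: of 20 tested 2 were higher and 16 lower. Wif1, a secreted Wnt inhibitor, measured 86.4 to 107.8 CPM (median 104) in imiquimod ears, against 668 to 814 CPM (median 769.7) in sham ears, and the groups were far apart at a log2 fold change of -2.92 ± 0.08. Axin2, a target of Wnt signalling, fell (-1.44 ± 0.07), and Wnt4 rose by 0.95 ± 0.05. Stat3, the factor downstream of IL-6 and IL-22, measured 435 to 470.3 CPM in imiquimod ears and 167 to 185 CPM in sham ears, and its inhibitor Socs3 rose by 2.22 ± 0.15. Bcl3, a nuclear NF-kB cofactor, rose by 3.28 ± 0.16, and Relb was not called (-0.00 ± 0.06). Among epidermal transcription factors Elf3 and Junb rose by 3.96 ± 0.18 and 2.01 ± 0.14, and Gata3 fell (-0.93 ± 0.09).

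Among called genes with a mean of at least 10 CPM in imiquimod ears, the 10 with the largest spread among the imiquimod libraries included 4 pseudogene or model entries. Gm6166 measured 699 CPM in imiquimod library 8. Rps18-ps6 and Rps7-ps3 measured 161 and 52.2 CPM in imiquimod library 11. Gm28042 measured 0 CPM in imiquimod library 12. Without library 11 Rps18-ps6 was no longer called and Rps7-ps3 was called lower. Entries of this kind share sequence with other genes, and their values are uncertain. The others were Irf7, Slfn4, Ly6c2, Oasl2, Cd72 and Mt4, of which Cd72, an inhibitory receptor of B cells, was no longer called without imiquimod library 8.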
